A study of Mus musculus with 8 samples.

Results

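Tropomyosins, calponins and transgelins are proteins that bind along actin filaments, and the genes described here are Tpm1, Tpm2, Tpm3, Tpm4, Cnn1, Cnn2, Cnn3, Tagln and Tagln2. They are the 9 mouse genes with these names, chosen by symbol, of 22963 gene symbols with RefSeq transcripts in the transcript table. RNA was sequenced from Bruce 4 cells, mouse embryonic stem cells of a male C57BL/6J, cultured for 2 weeks in each condition. The groups were LN511 2i (dishes coated with laminin-511, 2i medium), LN511 Std, gelatin 2i (gelatin-coated dishes) and gelatin Std, with 2 libraries each, 8 in all, described as biological replicates. The 2i medium holds inhibitors of MEK and GSK3, and the composition of Std is not given in the sources used here. The labels write the laminin as both LM511 and LN511. All 4 groups are the same line, so the results describe that line alone. Levels are in FPKM (fragment numbers corrected for transcript length and for library depth), here the sum over the RefSeq transcripts of a gene. Of the 9 genes, 8 had transcript rows, and all 8 passed the filter on low values. Tagln had none.

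Tropomyosin dimers lie end to end in the groove of the actin filament and govern which myosins and other proteins reach it. Tropomyosin genes can make several proteins. In Tpm1 and Tpm3, long forms start at an upstream promoter and short forms at an internal one, and a pair of mutually exclusive internal exons adds a second choice. Calponins carry a calponin-homology domain and actin-binding repeats, and transgelins are their smaller relatives. Cnn1 and Tagln are known as smooth muscle genes and as targets of serum response factor (SRF) with its actin-regulated MRTF cofactors, while Cnn2, Cnn3 and Tagln2 are the more widely expressed relatives.

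The files give no read counts. The commonest step between low FPKM values put the libraries at 2230000 to 2700000 fragments, a 1.211-fold range, and these depths are estimates only. Replicates correlated at 0.919 to 0.93 and libraries of different groups at 0.865 to 0.917 (Pearson r of log2 values across genes). The median difference over all tested genes lay between -0.04 and 0.05 (log2) in every comparison. All 10 embryonic stem cell markers, such as Pou5f1 and Sox2, reached 1 FPKM in every group, and their summed level was 2504.6 to 2876.7 FPKM over the libraries. Single markers did move with the medium: 3 rose and 3 fell in 2i on LN511, and 4 and 2 did so on gelatin. Over all tested genes, 8.58% rose and 9.95% fell on LN511, and 8.2% and 7.2% did so on gelatin. Nanog was higher in 2i by 3.64 on LN511 and 3.02 on gelatin (log2, limma adjusted p = 1.45e-05 and 2.57e-05), and Utf1 differed by -2.24 and -2.08 (adjusted p = 0.000154 and 0.00021). Markers of smooth muscle, fibroblasts, trophoblast and primitive endoderm are given beside the results they move with. In bulk RNA, fewer cells of a type and less RNA per cell cannot be told apart.

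The Tpm1 gene (mm10 chromosome 9, 67022590 to 67049672, minus strand) carries the transcript choices that the values below turn on. The long form starts in the first coding exon shown here, of 114 bases, and encodes 284 codons. The short form starts in another first exon, of 132 bases, 5.4 kb further along the gene, and encodes 248 codons. Both are shown with the start codon in capitals. The internal pair are exons of 76 bases each, of which a transcript uses 1. Capitals there mark the 33 positions at which the 2 exons differ, an identity of 56.6%. Sequences are of the coding strand, from GENCODE vM21 transcripts on GRCm38, the assembly that mm10 names, and in order their positions are chr9:67049019-67049132, chr9:67043578-67043709, chr9:67032466-67032541 and chr9:67031951-67032026, minus strand.
Tpm1 first coding exon, long form: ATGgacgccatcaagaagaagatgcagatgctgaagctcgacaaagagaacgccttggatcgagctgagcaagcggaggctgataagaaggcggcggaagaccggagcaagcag
Tpm1 first coding exon, short form: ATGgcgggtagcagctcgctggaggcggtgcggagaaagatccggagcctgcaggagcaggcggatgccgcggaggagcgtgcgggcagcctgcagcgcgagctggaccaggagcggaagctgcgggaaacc
Tpm1 upstream internal exon: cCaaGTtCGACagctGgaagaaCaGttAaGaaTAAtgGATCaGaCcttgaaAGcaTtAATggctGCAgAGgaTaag
Tpm1 downstream internal exon: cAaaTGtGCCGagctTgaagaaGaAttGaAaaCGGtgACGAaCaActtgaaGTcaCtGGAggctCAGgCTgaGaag

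The downstream exon of Tpm1 shared more bases with the downstream exons of Tpm3 (75.0%) and Tpm2 (73.7%) than with its own upstream partner. The Tpm1 upstream exon shared 65.8% with the upstream exon of Tpm3 and 64.5% with that of Tpm2. Tpm2, like Tpm1, has 2 such exons (chr4:43519003-43519078 and chr4:43518644-43518719, minus strand), shown with their 35 differing positions in capitals.
Tpm2 upstream internal exon: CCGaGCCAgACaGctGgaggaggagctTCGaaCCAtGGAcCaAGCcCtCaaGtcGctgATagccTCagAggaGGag
Tpm2 downstream internal exon: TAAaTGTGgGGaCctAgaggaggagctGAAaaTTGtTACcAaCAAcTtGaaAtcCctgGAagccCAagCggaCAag

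**Figure D1:**
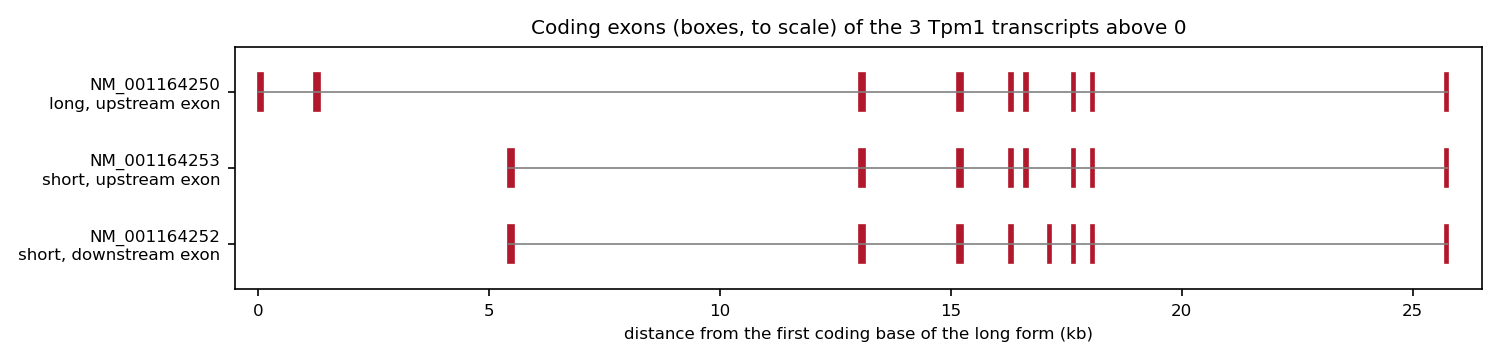
Coding exons of the 3 Tpm1 transcripts with values above 0, by distance from the first coding base of the long form (kb, to scale). The long transcript has 9 coding exons and the short ones 8. The short ones begin 5.4 kb along the gene, and their coding exons differ from each other only in the internal exon used.

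Tpm1 gave 21.4 and 44.2 FPKM in LN511 2i, against 130.5 and 134 FPKM in LN511 Std. On gelatin it gave 20.0 and 30.6 FPKM in 2i, against 57.1 and 46.4 FPKM in Std. The LN511 Std libraries were the highest of all 8, and the 2i libraries lay below the Std libraries on both coatings, with no overlap. On LN511 the 2i libraries were lower than Std by a log2 difference of -2.07 (SE 0.34, limma adjusted p = 0.00897), and Tpm1 fell past the threshold of 0.05. Differences throughout are on the scale of log2(FPKM + 1), which understates changes of low genes. On gelatin the difference was -1.03 (SE 0.34, limma adjusted p = 0.0938) and missed the threshold. LN511 against gelatin gave 1.34 in Std (SE 0.34, limma adjusted p = 0.123) and 0.31 in 2i (SE 0.34, adjusted p = 0.773), neither past the threshold. Of the 4 comparisons, then, only the medium on LN511 was called for Tpm1. That call was lost without LN511 Std replicate 1 (adjusted p = 0.0533) or replicate 2 (0.0559). The gelatin difference passed without LN511 2i replicate 1 (0.0337) or replicate 2 (0.0341).

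The Tpm1 total came from 3 of the 8 RefSeq transcripts listed, and the other 5 were at 0 in every library. RefSeq holds 10 for Tpm1, and NM_001164251 and NM_024427, both long forms, have no values here. The totals and long-form shares leave them out. The long transcript NM_001164250, which uses the upstream internal exon, gave 21.4 and 28.9 FPKM in LN511 2i, against 94.0 and 88.3 FPKM in LN511 Std. On gelatin it gave 10.04 and 14.1 FPKM in 2i, against 13.8 and 9.5 FPKM in Std. So the long transcript was high in the LN511 Std libraries and overlapped between media on gelatin. NM_001164253, short and with the same internal exon, gave 0 and 15.3 FPKM in LN511 2i, against 36.5 and 45.6 FPKM in LN511 Std. Gelatin cultures had 0 and 8.64 FPKM of it in 2i, against 30.9 and 19.6 FPKM in Std. It was higher in every Std library than in any 2i library. Its zeros in LN511 2i replicate 1 and gelatin 2i replicate 1 may be failed estimates. The Tpm1 sums of those 2 libraries, and with them the medium differences of Tpm1 above, rest in part on these zeros. NM_001164252, short and with the downstream exon, was listed at 0 in all 4 LN511 libraries. It gave 9.94 and 7.84 FPKM in gelatin 2i and 12.4 and 17.2 FPKM in gelatin Std, or about 34 to 68 fragments a library by the estimated depth. A listed 0 can be a failed estimate in these files, so these values are not read as absence on LN511.

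In a fit of 11429 single RefSeq transcripts, added after the values were seen, the long Tpm1 transcript was higher on LN511 than on gelatin in Std by 2.88 (log2, SE 0.25, limma adjusted p = 0.00789). In that comparison 1.43% of transcripts passed. The call was lost when any of its 4 libraries was left out, with adjusted p = 0.114 without LN511 Std replicate 1, 0.0884 without LN511 Std replicate 2, 0.0542 without gelatin Std replicate 1 and 0.0752 without gelatin Std replicate 2. On LN511 the long transcript fell in 2i by -1.83 (SE 0.25, limma adjusted p = 0.00579), where 13.2% of transcripts passed, a call lost without LN511 Std replicate 1 (adjusted p = 0.0504). On gelatin the medium difference was 0.05 (SE 0.25, limma adjusted p = 0.937). The difference between those 2 medium effects was -1.88 (SE 0.35, limma adjusted p = 0.132) and missed the threshold, where 0.07% of transcripts passed. The short Tpm1 transcripts were left out of that fit because of their zeros.

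As a share of Tpm1, the long transcript held 100% and 65.4% in LN511 2i and 72.0% and 65.9% in LN511 Std. On gelatin it held 50.3% and 46.1% in 2i and 24.2% and 20.5% in Std. All 4 LN511 libraries were above all 4 gelatin libraries. These shares take each listed 0 as a value: NM_001164252 counts as 0% in the 4 LN511 libraries, and NM_001164253 as 0% in LN511 2i replicate 1 and gelatin 2i replicate 1. The coating differences that follow rest on those zeros, which may be failed estimates. Averaged over the media, its share was 40.6 percentage points higher on LN511 (SE 9.4, limma adjusted p = 0.383 over 3280 transcripts of 1416 genes), and that of NM_001164252 was lower by -33.6 points (SE 7.5, adjusted p = 0.383). The differences of NM_001164253 were -7 points for the coating (SE 11, limma adjusted p = 0.899) and -23.9 points for 2i against Std (SE 11, adjusted p = 0.542). None of the 3 passed in either contrast, in which 0.244% (coating) and 0.488% (medium) of transcript shares passed. Without LN511 2i replicate 2 the long transcript's coating difference passed, at 49.24 points (limma adjusted p = 0.0442). Shares within a gene add up to 100% and are not independent.

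**Figure D2:**
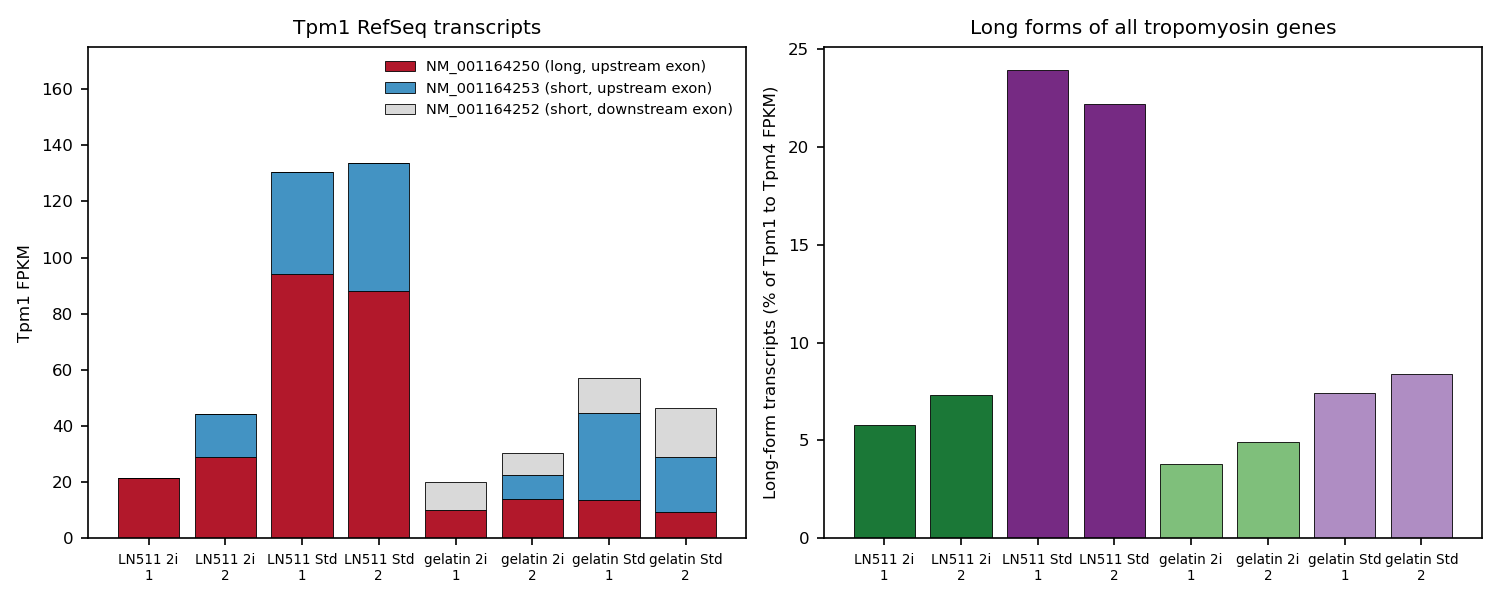
Left, FPKM of the 3 Tpm1 RefSeq transcripts above 0 in each library (stacked bars). Right, long-form transcripts of all 4 tropomyosin genes as a percent of the Tpm1 to Tpm4 FPKM. The 2 LN511 Std libraries stand highest in both, at 130.5 and 134 FPKM and at 23.9% and 22.2%.

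Tpm2 (chromosome 4, 43513726 to 43523583), whose long form is known from muscle and fibroblasts, gave 4.21 and 5.65 FPKM in LN511 2i, against 23.0 and 18.4 FPKM in LN511 Std. The gelatin levels were 3.31 and 3.11 FPKM in 2i, against 8.32 and 14.4 FPKM in Std. As with Tpm1, LN511 Std was highest and the media did not overlap on either coating. Tpm2 fell in 2i by -1.88 on LN511 (SE 0.29, limma adjusted p = 0.00749) and by -1.51 on gelatin (SE 0.29, limma adjusted p = 0.0182). The coating differences of 0.85 in Std and 0.48 in 2i (SE 0.29 each) missed the threshold, with limma adjusted p = 0.225 and 0.572. The call on LN511 was lost without LN511 Std replicate 1 (0.0542), and that on gelatin without gelatin 2i replicate 1 (0.0773) or replicate 2 (0.0851) or gelatin Std replicate 2 (0.0749). Nearly all of it was the long transcript NM_001277876. NM_001277875 was above 0 in 1 library only, at 0.9 FPKM in gelatin 2i replicate 2. Tpm2 overlaps the end of Car9 by 4 bases.

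Tpm3 (chromosome 3, 90072651 to 90100902), a widely expressed tropomyosin, had the highest level of the 4 genes in every library. It gave 312 and 319 FPKM in LN511 2i, against 247 and 239.8 FPKM in LN511 Std. Gelatin cultures gave 274 and 259 FPKM in 2i, against 189 and 185 FPKM in Std. The order was LN511 2i, gelatin 2i, LN511 Std and gelatin Std, with no overlap between neighbours. In 2i it rose by 0.37 on LN511 (SE 0.06, limma adjusted p = 0.00999) and by 0.51 on gelatin (SE 0.06, adjusted p = 0.00395). In Std, LN511 libraries were higher than gelatin libraries by 0.38 (SE 0.06, limma adjusted p = 0.0379). In 2i that difference was 0.25 (SE 0.06, adjusted p = 0.243). Tpm3 was thus called by medium on both coatings and by coating in Std alone, with small differences throughout. The call on LN511 was lost without LN511 Std replicate 2 (0.0631). The coating call in Std was lost without any one of LN511 Std replicate 1 (0.177) or replicate 2 (0.146), gelatin 2i replicate 1 (0.0779) or replicate 2 (0.0783), gelatin Std replicate 1 (0.125) or replicate 2 (0.156), and with quantile normalization (0.0634). All its listed signal was in the short transcript NM_001253738, with the other 5 transcripts listed at 0. NM_001357581 of Tpm3 has no values here.

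Tpm4 (chromosome 8, 72135288 to 72153142), another short tropomyosin of non-muscle cells, followed the coating as well as the medium. It gave 103.4 and 102.6 FPKM in LN511 2i, against 89.4 and 88.3 FPKM in LN511 Std. Gelatin libraries had 57.8 and 58.0 FPKM in 2i, against 43.8 and 38.7 FPKM in Std. Every LN511 library was above every gelatin library. In Std the LN511 libraries were higher by 1.09 (SE 0.09, limma adjusted p = 0.00533). In 2i the difference of 0.82 (SE 0.09, limma adjusted p = 0.0542) just missed the threshold, and it passed with no filter on low values (0.046) or with doubtful zeros kept (0.0296). The medium effect was 0.48 on gelatin (SE 0.09, limma adjusted p = 0.0164), where Tpm4 rose, and 0.21 on LN511 (SE 0.09, adjusted p = 0.162). Coating differences were the larger ones for Tpm4. The coating call in Std was lost without LN511 Std replicate 1 (0.0705) or replicate 2 (0.0533). The medium call on gelatin was lost without gelatin 2i replicate 1 (0.0762) or replicate 2 (0.0783) or gelatin Std replicate 2 (0.0705).

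Together, Tpm3 made up 70.7% and 67.7% of tropomyosin FPKM in LN511 2i, against 50.4% and 49.9% in LN511 Std. On gelatin it made up 77.2% and 73.9% in 2i, against 63.4% and 65.0% in Std. The share of Tpm1 was 4.8% and 9.4% in LN511 2i, against 26.6% and 27.9% in LN511 Std. In gelatin cultures it was 5.6% and 8.7% in 2i, against 19.1% and 16.3% in Std. Tpm1 thus took a larger share in every Std library than in any 2i library. Long-form transcripts, of Tpm1 and Tpm2 only, were 5.8% and 7.3% of all tropomyosin FPKM in LN511 2i, against 23.9% and 22.2% in LN511 Std. On gelatin they were 3.8% and 4.9% in 2i, against 7.4% and 8.4% in Std. These family shares are given as a description, with no test. RefSeq lists 3 pseudogene copies of Tpm3 and 1 each of Tpm4 and Cnn2, and whether reads were shared with them is not given in the sources used here, so those 3 levels are uncertain to that extent.

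**Figure D3:**
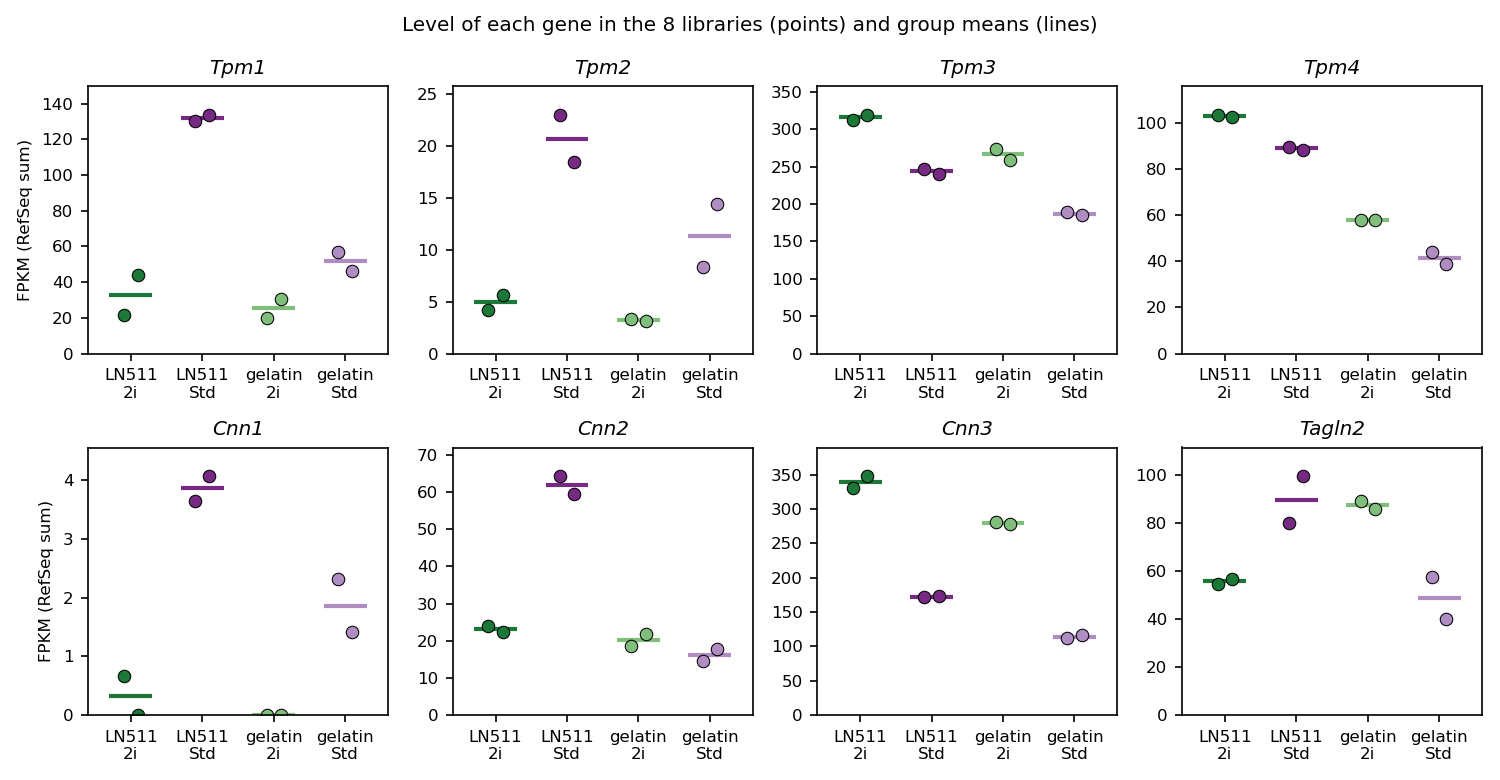
FPKM of each gene in the 8 libraries (points), with the mean of each group (lines), on axes that start at 0. Tpm1, Tpm2, Cnn1 and Cnn2 were highest in LN511 Std, and Tpm3, Tpm4 and Cnn3 in LN511 2i.

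Cnn1 (chromosome 9, 22099221 to 22109221), the smooth muscle calponin, was near the floor of detection. It gave 0.66 and 0 FPKM in LN511 2i, against 3.65 and 4.07 FPKM in LN511 Std. On gelatin it was listed at 0 in both 2i libraries, against 2.31 and 1.41 FPKM in Std. Those Std levels are about 8 to 26 fragments a library by the estimated depth. Every Std library was above every 2i library. Cnn1 reached 1 FPKM only in the Std libraries and passed the low-value filter through them alone, and its 2i zeros may be failed estimates, so the fitted values that follow are a description. On LN511 the difference was -1.92 (SE 0.34, limma adjusted p = 0.0114). On gelatin the fitted value was -1.5 (SE 0.34, limma adjusted p = 0.0297), which depends on the pseudocount and is no bound. The coating differences, 0.78 in Std and 0.36 in 2i (SE 0.34 each), missed the threshold with limma adjusted p = 0.324 and 0.718. The call on LN511 was lost without LN511 Std replicate 1 (0.0517) or replicate 2 (0.0612), and with a pseudocount of 0.1 FPKM (adjusted p = 0.0505, fitted value -3.85). That on gelatin was lost without LN511 Std replicate 1 (0.0511) or replicate 2 (0.0507), gelatin 2i replicate 1 (0.112) or replicate 2 (0.11), gelatin Std replicate 1 (0.124) or replicate 2 (0.0634), and in the deposited gene table (0.0523).

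Cnn2 (chromosome 10, 79988600 to 79995400), a calponin of many non-muscle cells, stood out in 1 group. It gave 24.0 and 22.4 FPKM in LN511 2i, against 64.3 and 59.5 FPKM in LN511 Std. On gelatin it gave 18.7 and 21.9 FPKM in 2i, against 14.7 and 17.9 FPKM in Std. Both LN511 Std libraries were far above all others, and the gelatin groups did not overlap though their nearest libraries differed by less than 1 FPKM. In Std, LN511 libraries were higher by 1.87 (SE 0.15, limma adjusted p = 0.00494). In 2i that difference was 0.19 (SE 0.15, adjusted p = 0.664). The coating difference was therefore called in Std alone. On LN511, Cnn2 fell in 2i by -1.38 (SE 0.15, limma adjusted p = 0.00173). On gelatin the medium difference was 0.3 (SE 0.15, adjusted p = 0.225). The difference between those medium effects was -1.68 (SE 0.21, limma adjusted p = 0.0519), just short of the threshold, and it passed when doubtful zeros were kept (0.0453). So no difference in the medium effect between the coatings was called for Cnn2. The coating call in Std was lost without LN511 Std replicate 1 (0.0703) or replicate 2 (0.0513).

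Promoter windows from 250 bases before to 50 after the start were on hand for 8 of the 9 genes (RefSeq, GRCm38.p6), 9 windows in all. They were searched on both strands for the CArG box that SRF binds, for GGAATG, the core bound by TEAD factors, and for TGANTCA, bound by AP-1. Cnn2 was the 1 gene of the 8 with an exact CArG box (CCWWWWWWGG, with W for A or T), which 1.63% of all 32851 windows hold. Inexact sites, such as ccatatatag in the Tpm1 window below, were not counted. Tpm1 had 1 GGAATG and Tagln2 had 2, a motif in 14.66% of windows. TGANTCA, in 7.81% of windows, was in none of the members' windows. The 250 bases before the start of Cnn2 and of Tpm1 follow, with the CArG box of Cnn2 (-56 to -47) and the GGAATG of Tpm1 (-56 to -51) in capitals, counting the last base before the start as -1. They are shown because these genes had a match and their LN511 Std libraries were above all others. No match was found for Tpm2 or Cnn1, which were also highest in LN511 Std. Tagln2 is not shown, as its LN511 Std and gelatin 2i libraries overlapped. The Tpm1 window lies before the first coding exon of the long form. They lie at chr10:79988350-79988599, plus strand, and chr9:67049214-67049463, minus strand. The matched motifs did not overlap each other, and a match describes letters, not a bound site.
Cnn2 promoter: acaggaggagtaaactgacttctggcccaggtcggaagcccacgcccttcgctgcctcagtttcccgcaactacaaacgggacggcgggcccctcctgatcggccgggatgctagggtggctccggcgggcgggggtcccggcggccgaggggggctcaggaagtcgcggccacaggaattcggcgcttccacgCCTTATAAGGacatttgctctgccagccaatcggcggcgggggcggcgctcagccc
Tpm1 promoter: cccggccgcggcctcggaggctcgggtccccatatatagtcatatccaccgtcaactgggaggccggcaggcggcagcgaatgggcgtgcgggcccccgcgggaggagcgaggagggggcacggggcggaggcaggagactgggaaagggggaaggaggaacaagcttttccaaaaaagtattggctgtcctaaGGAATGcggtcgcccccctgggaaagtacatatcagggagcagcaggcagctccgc

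Cnn3 (chromosome 3, 121426541 to 121458205), the acidic calponin of non-muscle cells, was the most abundant calponin and ran the other way. It gave 331 and 348 FPKM in LN511 2i, against 172 and 173 FPKM in LN511 Std. Its gelatin levels were 281 and 279 FPKM in 2i, against 112 and 117 FPKM in Std. No groups overlapped, and both 2i groups were above both Std groups. Cnn3 rose in 2i by 0.97 on LN511 (SE 0.06, limma adjusted p = 0.000295) and by 1.29 on gelatin (SE 0.06, adjusted p = 0.000128). In Std the LN511 libraries were higher than the gelatin libraries by 0.59 (SE 0.06, limma adjusted p = 0.0109). In 2i that difference was 0.28 (SE 0.06, adjusted p = 0.213). Medium differences were the larger ones for Cnn3. Both medium calls held with each library left out in turn. The coating call in Std was lost without LN511 Std replicate 1 (0.0826) or replicate 2 (0.0846), gelatin Std replicate 1 (0.0671) or replicate 2 (0.055). Cnn3 made up 71.6% to 93.9% of calponin FPKM, lowest in LN511 Std.

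Tagln (chromosome 9, 45929628 to 45936058), the smooth muscle transgelin, was not analysed here beyond 1 fact: the gene table lists it at 0 in all 8 libraries. That table lists at 0 47.3% of the values that transcript sums put at 1 FPKM or more, so this is not a measurement. Tagln also overlaps Pcsk7 over 2480 bases.

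Tagln2 (chromosome 1, 172500246 to 172507375), the transgelin of non-muscle cells, was called in opposite directions on the 2 coatings. It gave 54.6 and 56.8 FPKM in LN511 2i, against 80.0 and 99.6 FPKM in LN511 Std. The gelatin libraries gave 89.2 and 85.9 FPKM in 2i, against 57.4 and 40.1 FPKM in Std. The media did not overlap on either coating. Tagln2 fell in 2i on LN511 by -0.67 (SE 0.18, limma adjusted p = 0.0459) and rose in 2i on gelatin by 0.85 (SE 0.18, adjusted p = 0.0248). The difference between those effects was -1.52 (SE 0.26, limma adjusted p = 0.0975) and missed the threshold. LN511 against gelatin gave 0.88 in Std (SE 0.18, limma adjusted p = 0.0675) and -0.64 in 2i (SE 0.18, adjusted p = 0.265). Neither coating difference of Tagln2 passed. The medium call on LN511 was lost with a pseudocount of 0.1 FPKM (0.0555), no filter on low values (0.0673) or doubtful zeros kept (0.0617). It was also lost without LN511 2i replicate 1 (0.143) or replicate 2 (0.127), LN511 Std replicate 1 (0.0776) or replicate 2 (0.206), gelatin 2i replicate 1 (0.0787) or replicate 2 (0.0788). The call on gelatin was lost without gelatin 2i replicate 1 (0.114) or replicate 2 (0.0976) or gelatin Std replicate 2 (0.0794).

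**Figure D4:**
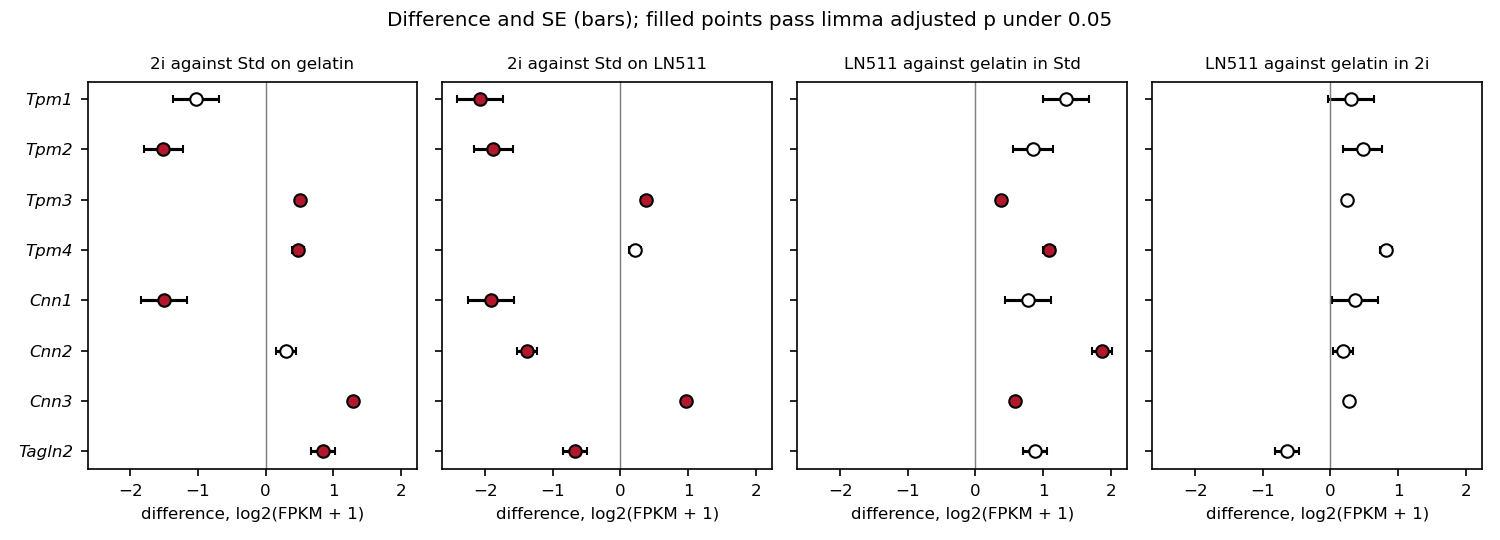
Difference of log2(FPKM + 1) with its SE for the 8 tested genes in 4 comparisons. Filled points passed limma adjusted p under 0.05. On LN511, Tpm1, Tpm2, Cnn1, Cnn2 and Tagln2 were lower in 2i, and Tpm3 and Cnn3 were higher.

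Of the 8 tested genes, 4 were called higher and 2 lower in 2i on gelatin, where 15.4% of 10278 tested genes passed in either direction (8.2% higher, 7.2% lower). On LN511, 2 were called higher and 5 lower, with 18.5% of all genes passing (8.58% higher, 9.95% lower). In Std, 4 were higher on LN511 than on gelatin and 0 lower, with 2.1% of all genes passing (1.54% higher, 0.564% lower). In 2i none of the 8 differed past the threshold between coatings (limma), with 0.0195% of all genes passing. At an unadjusted p under 0.05 there were 4 (11.9% of all genes). For the difference between the medium effects on the 2 coatings none of the 8 passed either (0.185% of all genes, 0.0486% higher and 0.136% lower). At an unadjusted p under 0.05 there were 3 (12.2% of all genes). The median difference over the 8 was 0.39, -1.02, 0.87, 0.29 and -0.39 (log2) in that order of comparisons. The counts of lower calls in 2i include Cnn1, which passed the filter through its Std libraries alone. Fits on only the 4 libraries compared ended the calls of Tpm2, Tpm4 and Tagln2 on gelatin (limma adjusted p = 0.0625 to 0.0776), and of Tpm1, Tpm3, Cnn1 and Tagln2 on LN511 (0.0506 to 0.0628). They also ended all 4 coating calls in Std (0.0749 to 0.0842). Tpm3 and Cnn3 rose in 2i on both coatings and Tpm2 fell on both. The comparisons share libraries within each coating and medium.

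Among 22 tested of 31 SRF and MRTF target genes, 8 were higher and 0 lower on LN511 than on gelatin in Std (median difference 0.64, against 0.05 over all genes). Over all genes, 1.54% were higher and 0.564% lower in that comparison. Ccn1, a secreted matrix protein, gave 77.7 and 78.5 FPKM in LN511 Std, against 11.3 and 10.4 FPKM in gelatin Std (log2 2.74, SE 0.11, limma adjusted p = 0.000351). The LIM protein Csrp1 was higher by 1.98 (SE 0.18, limma adjusted p = 0.00726) and the actin crosslinker Flna by 0.82 (SE 0.09, adjusted p = 0.0103). Both calls were lost when any of the 4 Std libraries was left out (0.0509 to 0.0826). On LN511, 1 of the 22 rose in 2i and 9 fell, with median -0.48, where 8.58% of all genes rose and 9.95% fell. The 9 include Flnc, at 6.66 and 5.86 FPKM in LN511 Std and at most 0.66 FPKM in 2i. It reached 1 FPKM only in Std libraries and passed the low-value filter through them alone. Zyx, the focal adhesion protein zyxin, gave 5.04 and 4.24 FPKM in LN511 2i, against 20.5 and 22.5 FPKM in LN511 Std. On gelatin 6 rose and 2 fell, with median 0.19, where 8.2% of all genes rose and 7.2% fell. Counts with 1 library left out were 1 to 8 higher for the coating in Std, 4 to 7 lower on LN511, and 3 to 6 higher and 0 to 1 lower on gelatin. With no filter on low values, or with only the 4 libraries compared, 0 were lower on gelatin. With only the 4 libraries, 1 was higher between coatings in Std, and 1 rose and 4 fell on LN511. The list shares Actb, Actg1, Acta2 and Actg2 with the actin isoforms below. It also shares Lmod1, Myh9, Myl9, Cfl1, Actn1 and Wdr1 with the actin filament partners below, and Srf with the cofactors. With the smooth muscle markers it shares Acta2, Actg2, Mylk, Lmod1 and Tgfb1i1, so these counts are not independent.

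Of the 16 tested among 26 SRF cofactors and upstream regulators, at most 2 passed in any comparison, where 0.0195% to 18.5% of all genes passed. Wwtr1, the YAP relative TAZ, rose in 2i on LN511, at 13.8 and 13.3 FPKM against 4.39 and 5.06 FPKM in Std (log2 1.34, SE 0.19, limma adjusted p = 0.00475). It rose on gelatin too, at 13.37 and 13.62 FPKM against 5.5 and 6.63 FPKM (1.04, SE 0.19, limma adjusted p = 0.0138). That gelatin call was lost with only the 4 libraries compared (limma adjusted p = 0.0507). It was also lost without gelatin 2i replicate 1 (difference 1.05) or replicate 2 (1.03), or gelatin Std replicate 1 (0.93). Of 31 tested actin filament partners of tropomyosin (37 listed), 12 were called higher and 2 lower in 2i on gelatin, and 7 higher and 5 lower on LN511. Over all genes, 8.2% were called higher and 7.2% lower on gelatin, and 8.58% higher and 9.95% lower on LN511. Tmsb4x, which sequesters actin monomers, fell in 2i on both coatings, by -1.31 on LN511 (SE 0.11, limma adjusted p = 0.000805) and -1.05 on gelatin (SE 0.11, adjusted p = 0.0024). Myl12b, a myosin light chain, rose by 0.82 and 0.93 (SE 0.09 each, limma adjusted p = 0.00169 and 0.00133). Tmsb10, of the same list, went the other way from Tmsb4x and rose in 2i on gelatin by 0.75 (SE 0.08, limma adjusted p = 0.0027). On LN511, Tmsb10 gave 1268.94 and 1434.76 FPKM in 2i, against 917.65 and 960.09 FPKM in Std. In Std 3 of the 31 were higher on LN511 and none lower, where 1.54% of all genes were higher and 0.564% lower. With 1 library left out, 4 to 11 were higher on gelatin, 3 to 8 were higher and 2 to 4 lower on LN511, and 0 to 4 were higher between coatings in Std. With only the 4 libraries compared, the last count was 0.

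Of 6 actin isoforms, 3 were tested, Actb, Actg1 and Acta1. In Std, Actb was higher on LN511 by 0.57 (SE 0.09, limma adjusted p = 0.0349) and Actg1 by 0.38 (SE 0.06, adjusted p = 0.0365). Both calls were lost with any 1 of the LN511 Std, gelatin 2i or gelatin Std libraries left out (0.0595 to 0.189). In that coating comparison 2.1% of all genes passed. For the medium, Actb was higher in 2i on gelatin by 0.4 (SE 0.09, limma adjusted p = 0.0309), where 15.4% passed. On LN511, Actg1 was lower in 2i by -0.24 (SE 0.06, limma adjusted p = 0.0431) and Acta1 by -1.27 (SE 0.28, adjusted p = 0.0251). Acta1 passed the filter through LN511 Std alone, at 2.22 and 1.36 FPKM. Fits on only the 4 libraries compared ended these medium calls (limma adjusted p = 0.0769 to 0.148). Of 8 troponin genes, 5 were tested and 2 passed in 1 comparison only, 2i against Std on LN511 (Tnnt1 lower and Tnni1 higher). There 18.5% of all genes passed. The Tnnt1 call was lost without LN511 2i replicate 1 (limma adjusted p = 0.0676), LN511 Std replicate 1 (0.112) or replicate 2 (0.0607). Tnni1 passed the filter through LN511 2i alone, at 1.9 and 1.69 FPKM, and its call was lost without LN511 2i replicate 1 (0.0877) or replicate 2 (0.076), without LN511 Std replicate 2 (0.0969) and with a pseudocount of 0.1 FPKM (0.102). With only the 4 libraries compared, neither passed. Among 5 tested of 7 other calponin-homology and related genes, Lasp1, an actin-binding LIM and SH3 protein, passed. It gave 64.4 and 88.7 FPKM in LN511 2i, against 122.6 and 149 FPKM in LN511 Std. On gelatin it gave 98.7 and 97.7 FPKM in 2i, against 62.7 and 61.6 FPKM in Std. Its differences were -0.83 for the medium on LN511 (SE 0.16, limma adjusted p = 0.0165), 0.65 for the medium on gelatin (SE 0.16, adjusted p = 0.0404) and 1.11 for the coating in Std (SE 0.16, adjusted p = 0.0276). The LN511 call was lost without LN511 Std replicate 2 (0.0909) and with only the 4 libraries compared (0.0823), which also ended the coating call (0.0749). The gelatin call was lost without any 1 of the LN511 Std and gelatin libraries (0.0543 to 0.148), when low genes stayed in (0.0602) or doubtful zeros did (0.0546), and the coating call without any 1 of the LN511 Std and gelatin libraries (0.0738 to 0.138). Over all genes, 18.5% (medium, LN511), 15.4% (medium, gelatin) and 2.1% (coating, Std) passed in those comparisons. With no filter on low values, 2 of the 7 genes were called lower in 2i on LN511 and 0 higher on gelatin. Under that setting 1008 genes in all were called lower on LN511 and 745 higher on gelatin.

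Markers of other cell types moved with some of these groups, and their part in the results was not tested. The 12 trophoblast markers summed to 39.3 and 47.6 FPKM in LN511 2i, against 196.9 and 197.0 FPKM in LN511 Std. The gelatin sums were 49.7 and 50.7 FPKM in 2i, against 32.2 and 37.5 FPKM in Std. As for Cnn2, the LN511 Std libraries stood highest. Most of the LN511 Std sum was Krt8 (87.3 and 93.4 FPKM) and Krt18 (75.5 and 76.7), keratins of simple epithelia. Krt7 (10.23 and 7.65 FPKM) and Hand1 (3.12 and 2.35 FPKM) were also highest in LN511 Std, with at most 3.09 and 0.49 FPKM elsewhere. Eomes and Tfap2c were highest in gelatin 2i, and Ascl2 in gelatin Std. Elf5 was at 0 in all but 1 library and Cdx2 was at most 2.15 FPKM. The 15 smooth muscle markers summed to 10.1 to 15.5, 22.3 to 23.7, 13.5 to 14.5 and 11.6 to 13.3 FPKM in that order of groups. Smtn, at 4.92 to 12.55 FPKM, was the largest part of the sum in every library. Acta2 gave 4.75 and 6.63 FPKM in LN511 Std and at most 0.16 elsewhere, and Myocd and Pln were at 0 in every library. Others did not follow Acta2. Ldb3 was highest in gelatin Std (1.14 and 0.82 FPKM), where Synm gave 1.77 and 1.46 FPKM, against 1.63 and 0.98 in LN511 Std. Hspb6 peaked at 3.33 FPKM in gelatin 2i replicate 1. Of 5 smooth muscle markers tested, 0 passed in any comparison, where 0.0195% to 18.5% of all genes passed. The 16 fibroblast markers summed to 197.3 to 222.4, 107.2 to 112.3, 305.0 to 305.8 and 142.7 to 144.4 FPKM, nearly all Fn1 and Vim. Fn1 and Vim were called higher in 2i on both coatings. Thy1 went the other way, at 2.19 and 2.04 FPKM in LN511 Std and 4.45 and 3.54 FPKM in gelatin Std. In 2i it was at most 0.51 FPKM, so it passed the low-value filter through the Std libraries alone. Postn, Lum and Prrx1 were at 0 throughout and Col1a1 under 1 FPKM. Of 12 primitive endoderm markers, 11 had rows and summed to 188.0 to 210.2, 135.2 to 156.2, 121.5 to 131.8 and 83.2 to 92.4 FPKM, mostly Sparc, with Gata4, Gata6 and Sox17 under 1 FPKM in every library. Sparc was called higher in 2i on both coatings. Lamb1 was lower there, at 3.83 to 9.49 FPKM in 2i against 15.48 to 40.81 FPKM in Std.

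Over the 8 libraries, the gene whose log2 level ran most like Cnn2 was Krt8 (Pearson r = 0.99), among 6866 tested genes with a group mean of at least 5 FPKM. Tpm1 was closest to S100a6 (0.988), Tpm2 to Lpar2 (0.993), Tpm3 to Sparc (0.995), Tpm4 to Ddah1 (0.991), Cnn3 to Ptges (0.996) and Tagln2 to Ctu1 (0.97). Among the members, Tpm1 and Tpm2 correlated at 0.91, Tpm2 and Cnn1 at 0.9 and Tpm3 and Cnn3 at 0.96, while Cnn1 and Cnn3 stood at -0.73. These are descriptions over 8 libraries that share 4 conditions.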

How the data were processed

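RNA-seq libraries of 8 cultures were analysed from 2 tables of FPKM values that the authors deposited, one of genes and one of transcripts. The submitters' processing notes name the mm10 build, Cufflinks 2.1.1 and TopHat2 2.1.1. The sources used here do not say what each tool did, which annotation served, whether reads were stranded or how libraries were scaled. All columns were used (0 left out). Gene values are sums over RefSeq transcripts, because the gene table lists many expressed genes at 0. Of 32688 RefSeq rows 31786 matched a symbol in the GRCm38.p6 gene table, and the 21844 assembled rows were left out, so their reads are missing from the sums.

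The filter kept 11244 genes that reached 1 FPKM in 2 or more libraries, less 966 with a doubtful zero: 1 replicate, or a whole group, at 0 while the other replicate, or another group's mean, reached 5 FPKM. That left 10278. Differences were tested with limma 3.58.1 (R 4.3.3, eBayes with trend) on log2(FPKM + 1), with 1 mean per group, all 8 libraries and 4 residual degrees of freedom, and calls at a Benjamini-Hochberg adjusted p under 0.05 over all genes. Transcript shares were fitted the same way as percent, for genes with a sum of at least 1 FPKM in all 8 libraries and shares that average 5 to 95 percent. These percent shares were computed from the deposited FPKM. The procedure was tested on simulated data. Each library was left out in turn, and other pseudocounts, filters, zero rules, normalization, the gene table and a replicate block were tried. The members, lists and tests were chosen with earlier results of these data known. All members were named, with up to 3 genes by adjusted p from each list and the gene most like each member (for Cnn1 it is not reported here). Lists were described by counts, medians and named members, with no set test. P-values measure the spread between the 2 libraries of each group, and the labels do not say whether these came from separate thaws or days. Replicate numbers did not pair the samples: deviations of same-numbered libraries correlated at -0.04 to 0.02.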

Additional observations from a re-analysis of the deposited data

Results flagged for a closer look

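The medium effect differed between the coatings, by the limma interaction test, for 19 genes in all (5 higher and 14 lower), none of them in the families described. The lists hold 3 of these: the log2 difference (LN511 minus gelatin) was -1.39 for Ccn1 (SE 0.15, adjusted p = 0.0415), -1.07 for Flna (SE 0.12, adjusted p = 0.0422) and -3.66 for Krt8 (SE 0.22, adjusted p = 0.0114). The Ccn1 and Flna calls were lost when any 1 of the 8 libraries was left out, with limma adjusted p from 0.0694 to 0.195. The Krt8 call was lost without LN511 Std replicate 1 (0.116) or replicate 2 (0.0597), gelatin Std replicate 1 (0.065) or replicate 2 (0.077).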

How the results depend on the processing

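The numbers of genes called moved with the processing. The 1583 genes of 2i against Std on gelatin became 295 in the deposited gene table and 998 with only the 4 libraries compared, and the 1905 on LN511 became 326 and 962. The 216 of LN511 against gelatin in Std became 135 in the gene table, 80 with a replicate block and 6 with only 4 libraries. The 2 of LN511 against gelatin in 2i became 0 with a pseudocount of 0.1 FPKM, 15 with no filter, 42 with doubtful zeros kept, 54 in the gene table, 0 with the replicate block and 0 with only 4 libraries. The 19 of the interaction became 31, 53, 65 and 1 with no filter, zeros kept, the gene table and the block. The 16 transcript shares called between media became 33 after an arcsine transform, 9 with sums of at least 5 FPKM and 0 with the block, and the 8 between coatings became 0 with sums of 5 FPKM and 0 with the block. With 1 library left out, counts ranged over 648 to 1516 (medium, gelatin), 861 to 1625 (medium, LN511), 9 to 199 (coating, Std), 0 to 12 (coating, 2i), 0 to 11 (interaction), 15 to 67 (shares, medium) and 0 to 59 (shares, coating). A left-out library leaves 1 in its group, which is assumed to vary like the others. Replicate numbers do not pair the samples. The block ended the calls of Tagln2 on LN511 (adjusted p = 0.072) and Tpm3 between coatings in Std (0.0795), and only those among members.

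Of 1621 other recomputed values, 1318 kept direction and side of the threshold, 287 missed it, 6 newly passed and 10 reversed or came to 0. The causes were not tested. These were Tpm1 between coatings in 2i without LN511 2i replicate 2 (-0.2; up to 0.81 with another library left out), Cnn1 there without LN511 2i replicate 1 (0.0; up to 0.73), and the Cnn1 interaction with a pseudocount of 0.1 (0.41). Shares reversed for NM_001164252 between media without gelatin 2i replicate 1 (-1.91 points; up to 10.14), and for NM_001164253 between coatings without LN511 2i replicate 1 (1.65) or gelatin 2i replicate 2 (0.06; down to -15.65). As single transcripts, NM_001164250 reversed between media on gelatin without gelatin 2i replicate 2 (-0.18) or gelatin Std replicate 2 (-0.2; up to 0.3), and the NM_001277876 interaction without gelatin 2i replicate 1 (0.02) or gelatin Std replicate 1 (0.17; down to -0.55). Depth limits the low levels most: Cnn1 had 0 to 26 estimated fragments a library, and Tpm2 10 to 15 in 2i.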
